A study of Homo sapiens with 6 samples.

Results

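The surface ligands through which natural killer (NK) cells read a target cell were examined in HEL cells, a human erythroleukemia cell line, together with the antibody targets CD47 and CD52. The 10 genes were MICA, MICB, ULBP1, ULBP2, ULBP3, PVR, CD48, CD58, CD47 and CD52, matched by name among the 31999 genes listed, and all 10 were present. CD33, also an antibody target, is given beside them but was not counted. RNA came from 3 libraries of cells with a control hairpin (shCtrl) and 3 with a hairpin against TMIGD2 (shTMIGD2). Both groups shared lentiviral transduction and puromycin selection, and the labels do not say which of the study's hairpins against TMIGD2 was used.

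The measurement used for each gene was 1 value, the authors' mean log2 CPM over all 6 libraries. CPM is the usual counts-per-million scale, a gene's count relative to all counted fragments of its library. Values per library were not analysed here, so there is no spread between replicates, no measured depth and no comparison of shTMIGD2 with shCtrl. The authors' own comparison of the hairpins was not used. From the mean alone, a level present under both hairpins and one that came mainly from a single hairpin cannot be told apart. Neither, in bulk RNA, can few cells with much of a transcript and many cells with little. TMIGD2 itself stood at a mean log2 CPM of 4.08, or 16.9 CPM, which as a mean over both hairpins does not check the labels. The erythroid and megakaryocyte genes fixed as markers of HEL were present throughout, with 10 of 10 at 1 CPM or more, against 69.1% of protein-coding genes. Their median was 8.25 on the log2 CPM scale. ITGA2B, the integrin chain CD41, was the highest of them at 10.54.

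NK cells weigh activating against inhibitory signals from the cell they touch. The activating receptor NKG2D binds MICA, MICB and the ULBP proteins, which stressed, infected or transformed cells display. CD226 (DNAM-1) and TIGIT compete for PVR (CD155), CD2 binds CD58, and CD244 (2B4) binds CD48. CD47 is a "don't eat me" signal that engages SIRP alpha on macrophages. CD52 is a short glycoprotein of lymphocytes and the target of alemtuzumab.

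Some of these ligands are near copies of their neighbours, which bears on how far a level can be assigned to 1 gene, and the runs below show the pair with the longest run and the MIC pair, which held the highest NKG2D ligand levels. Both are written 5′ to 3′ from the GENCODE 44 transcripts on GRCh38. In the longest coding sequences, ULBP2 (chromosome 6, 149942014 to 149949235, plus strand) and RAET1L, which encodes ULBP6, were identical at 714 of 738 aligned bases, or 96.7%. Their longest identical run was 168 bases, positions 571 to 738 of both coding sequences counted from the A of the start codon. MICA (chromosome 6, 31399784 to 31415315, plus strand) and MICB (chromosome 6, 31494881 to 31511124, plus strand) were less alike, with 78.8% identity over an alignment of 1156 bases. Their longest run was 71 bases, positions 746 to 816 of both.
ULBP2 and RAET1L: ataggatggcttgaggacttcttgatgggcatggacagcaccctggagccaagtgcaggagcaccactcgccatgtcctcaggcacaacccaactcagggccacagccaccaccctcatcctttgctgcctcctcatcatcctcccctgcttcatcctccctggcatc
MICA and MICB: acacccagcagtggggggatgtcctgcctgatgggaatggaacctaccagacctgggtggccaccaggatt

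A fragment within either run fits both genes of its pair, and a longer fragment reaching beyond the run can carry differences. Over whole transcripts, 32.6% of the distinct 50-base stretches of ULBP2 also occurred in transcripts of another gene. The share was 29.7% for RAET1L and 11.7% for RAET1G, with some stretches in both. For stretches of 100 bases the share found in any other gene was 12.1%. In ULBP3 (chromosome 6, 150061053 to 150069121, minus strand) the share was 11.1% and in ULBP1 (chromosome 6, 149963943 to 149973715, plus strand) 8.13% of 50-base stretches. MICA shared 1.86% and MICB 2.86%, and with stretches of 100 bases neither shared any. The level of ULBP2 is therefore uncertain, while the reference transcripts of MICA and MICB can be told apart over most of their length. The alleles of MICA and MICB in HEL cells were not examined. In PVR 19.1% of 50-base stretches were shared, mostly with an overlapping gene model on the same strand within its own exons and not with a second copy. CD48, CD58 and CD52 shared no 50-base stretch with another gene, and CD47 shared 0.0961%.

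**Figure D1:**
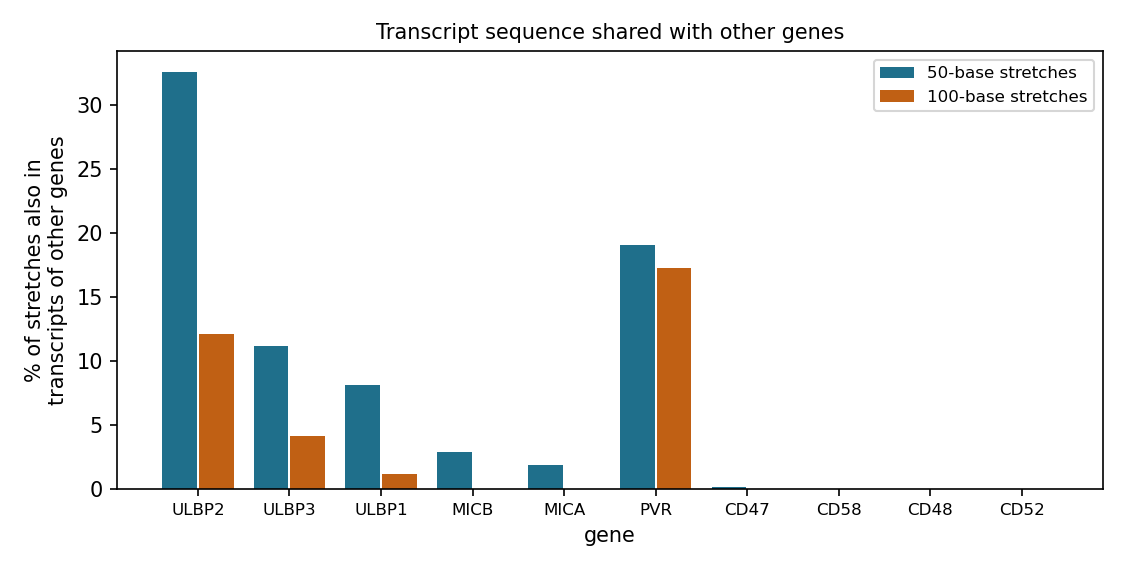
Share of each gene's distinct 50-base and 100-base transcript stretches (y axis, percent) that also occur in transcripts of other GENCODE 44 genes. ULBP2 stands highest at 32.6% for 50 bases and falls to 12.1% for 100 bases, while CD48, CD58 and CD52 are at 0.

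The NKG2D ligands spanned the widest range of levels, from MICB among the better expressed genes to ULBP1 near the lowest value in the table. MICB had a mean log2 CPM of 5.51, or 45.7 CPM, above 84.9% of all genes listed and 71.4% of protein-coding ones. MICA stood at 3.28, or 9.73 CPM, above 47.0% of protein-coding genes. The ULBP genes were all under 1 CPM. ULBP2 was at -0.19 on the log2 CPM scale (0.874 CPM), ULBP3 at -1.23 (0.426 CPM) and ULBP1 at -3.48 (0.0895 CPM). The lowest value of any gene listed was -3.76, or 0.0736 CPM, since this kind of mean includes a small added count, and ULBP1 lay 0.28 above it on the log2 scale. ULBP1 is thus near the level the table gives to a gene with next to no reads, and no fold is given against it.

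Longer transcripts collect more fragments, so levels of different genes were compared per kb of merged exon. On this scale MICB, at 4.03 log2 CPM per kb, lay 2.69 above MICA, at 1.34, a ratio of 6.46. With the longest transcript or the longest coding sequence as the length, the ratio was as low as 4.07, and MICB was above MICA under each length. ULBP2 reached -0.61 and ULBP3 -2.87 log2 CPM per kb. Of the summed per-kb level of the 5 NKG2D ligands, MICB made up 83.0%, MICA 12.8%, ULBP2 3.33% and ULBP3 0.697%. ULBP1 is in the sum, but its share is not given, since its value lies so near the lowest listed. MICA and MICB thus held nearly all of the summed per-kb level of these 5 genes, and the ULBP genes the remainder. The 3 NKG2D ligand genes outside the members did not add a high level. RAET1G, which encodes ULBP5, was at -0.49 on the log2 CPM scale, RAET1E, which encodes ULBP4, at -1.87 and RAET1L at -3.05. RAET1L and RAET1G share transcript sequence with ULBP2 as described, and how fragments from the shared sequence were counted was not tested.

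**Figure D2:**
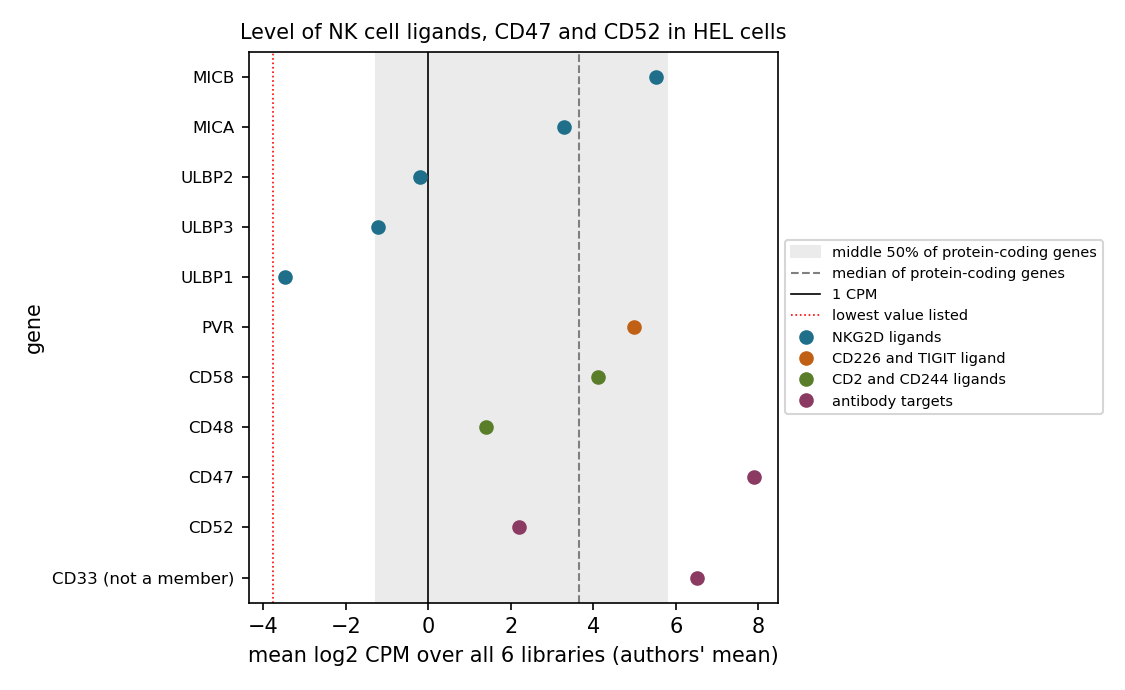
Mean log2 CPM over the 6 libraries (x axis) for each gene (y axis), coloured by role, with 1 point per gene and no error since values per library were not used. CD47 at 7.89 lies above the middle 50% of protein-coding genes (grey), ULBP1 at -3.48 lies near the lowest value listed (dotted line), and CD33 is shown for reference.

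PVR, CD58 and CD48 covered the middle of the range. PVR (chromosome 19, 44643798 to 44666162, plus strand) had a mean log2 CPM of 4.99, or 31.9 CPM, above 64.4% of protein-coding genes. Its merged exons are long, 10427 bases, and per kb it stood at 1.61, near MICA. NECTIN2, the other ligand of CD226, stood at 6.79 on the log2 CPM scale and at 4.89 per kb. The ratio of PVR to NECTIN2 per kb was 0.103 with merged exons and 0.353 with the longest coding sequence, below 1 under each length. CD58 (chromosome 1, 116514534 to 116571039, minus strand), also known as LFA-3, was at 4.12 log2 CPM or 17.4 CPM. CD48 (chromosome 1, 160678746 to 160711831, minus strand) was at 1.39 or 2.63 CPM. Per kb CD58 exceeded CD48 by 3.60 on the log2 scale, a ratio of 12.1 that was as low as 6.68 under another length. CD48 overlaps an antisense noncoding gene over 30.0% of its exon bases. The library kit marks strand, and how strand was set in counting is not given in the sources used here.

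CD47 was the highest member on every scale used. CD47 (chromosome 3, 108043091 to 108091862, minus strand) had a mean log2 CPM of 7.89, or 238 CPM, rank 754 of the 31999 genes listed and above 95.6% of protein-coding genes. At 4.85 log2 CPM per kb it lay 0.82 above MICB, the next member. CD52 (chromosome 1, 26317958 to 26320523, plus strand) was at 2.21 log2 CPM or 4.63 CPM, above 40.4% of protein-coding genes. Its merged exons are only 934 bases, the shortest of the 10, and per kb it stood at 2.31, above PVR and MICA. CD47 still exceeded CD52 by 2.54 per kb, a ratio of 5.83 that ranged from 4.40 to 9.71 over the 3 lengths. CD33, a myeloid lectin of the Siglec family targeted by gemtuzumab ozogamicin, stood between them at 6.50 log2 CPM and 3.93 per kb.

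**Figure D3:**
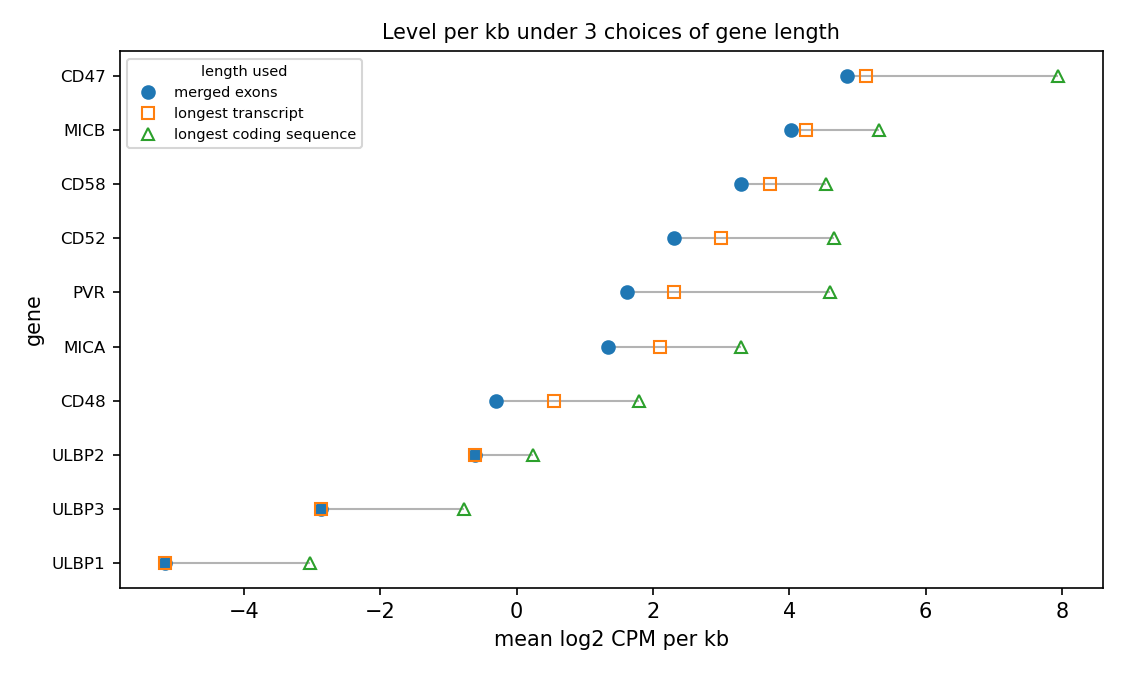
Mean log2 CPM per kb (x axis) of the 10 genes (y axis) with the merged exons, the longest transcript or the longest coding sequence as length, the grey line joining the 3 values of a gene. CD47 is highest and MICB next under each length, ULBP2, ULBP3 and ULBP1 are lowest in that order, and CD58, CD52 and PVR change places with the coding sequence.

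The order per kb was CD47, MICB, CD58, CD52, PVR, MICA, CD48, ULBP2, ULBP3 and ULBP1. It was identical with the longest transcript as length. With the longest coding sequence CD52 and PVR moved ahead of CD58, and with no length correction the middle places ran PVR, CD58, MICA and CD52. The order of these 4 thus rests on the length used, and without values per library no neighbours in the order can be said to differ beyond their spread. Of the 10 members, 7 were at 1 CPM or more, the exceptions being the 3 ULBP genes. Among protein-coding genes as a whole the share at 1 CPM or more was 69.1%, and among all genes listed 43.8%. The members' median of 2.75 on the log2 CPM scale lay below the protein-coding median of 3.64.

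The start regions of these genes differed in base composition, and CD47, the highest member, and CD52, the one with the fewest CpG dinucleotides, are shown as examples. Each sequence is the 250 bases before the RefSeq start (GRCh38.p14), 5′ to 3′ on the strand of the gene, at chr3:108091032-108091281 on the minus strand for CD47 and chr1:26317708-26317957 on the plus strand for CD52. Capitals mark the GC box GGGCGG or the inverted CCAAT box ATTGG on either strand, and overlapping matches were counted.
CD47: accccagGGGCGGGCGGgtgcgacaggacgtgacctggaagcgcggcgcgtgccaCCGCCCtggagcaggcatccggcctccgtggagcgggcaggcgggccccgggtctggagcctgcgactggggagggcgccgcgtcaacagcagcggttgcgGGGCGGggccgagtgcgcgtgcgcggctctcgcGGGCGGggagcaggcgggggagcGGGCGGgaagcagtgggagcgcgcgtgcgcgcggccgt
CD52: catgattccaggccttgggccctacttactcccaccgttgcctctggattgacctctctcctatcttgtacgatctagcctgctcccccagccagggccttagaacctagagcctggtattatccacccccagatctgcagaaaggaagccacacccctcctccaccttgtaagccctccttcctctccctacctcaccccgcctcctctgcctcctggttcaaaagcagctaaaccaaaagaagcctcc

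The CD47 window held 39 CpG dinucleotides and 79.6% G or C, with 6 matches to the GC box. The CD52 window held 3 CpG dinucleotides and 56.4% G or C, with no match to either box. Over the 35116 RefSeq windows of the same length the median was 11 CpG dinucleotides and 58% G or C, and 42.6% held a GC box. CD48 was like CD52, with 4 CpG dinucleotides and no GC box, whereas CD58 had 31 and PVR 27. MICA and MICB windows had 17 and 18 CpG dinucleotides, were 82.7% identical over an alignment of 254 bases and each held 1 GC box. ULBP1, ULBP2 and ULBP3 had 20, 18 and 22 CpG dinucleotides, and ULBP3 held 6 GC boxes. ULBP1 and ULBP2 each held 3 matches to TGACG on either strand, the core of the cyclic AMP response element, and CD47 and CD58 each held 1. Of all windows, 21.2% held it at least once. The CD47 window overlaps no annotated exon but lies within the annotated gene, which reaches upstream to position 108091862. The windows of MICA, MICB, PVR, CD48 and CD58 overlap annotated exons of the gene itself, from transcripts that start further upstream. The longest stretch outside these exons was 100 of the 250 bases in MICA, without its GC box, and 138 in PVR. These counts are descriptions of the windows, with no test, and their relation to the levels was not tested.

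The genes fixed for the shedding and the anchoring of the members were all at 1 CPM or more, against 69.1% of protein-coding genes. For the shedding of NKG2D ligands, 4 of 4 genes were at this level. They were PDIA6, the disulfide isomerase ERp5, at 8.32 on the log2 CPM scale, and the metalloproteases ADAM10 at 8.15, MMP14 at 6.49 and ADAM17 at 5.62. ULBP1, ULBP2, ULBP3, CD48 and CD52, with 1 form of CD58, are held in the membrane by a glycosylphosphatidylinositol (GPI) anchor. Of the 18 genes fixed for building, attaching or later remodelling this anchor, a part of that pathway, 18 were at 1 CPM or more. They ran from PGAP1 at 2.51 to PIGS at 7.14. QPCTL, the glutaminyl cyclase that modifies CD47 for binding by SIRP alpha, was at 3.66, while SIRPA itself was at -3.40, near the lowest value listed. CALR, a prophagocytic signal when exposed on the surface, was at 9.66, and CD24, a further "don't eat me" signal, at 6.63.

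Among 15 other ligands of NK cell receptors, 11 (73.3%) were at 1 CPM or more, near the 69.1% among protein-coding genes. The median of the 15 was 4.61. Among them were HLA class I genes, ligands of inhibitory receptors, with HLA-C at 8.66, HLA-B at 8.55 and HLA-E at 7.91 on the log2 CPM scale. Their sequences vary between people and resemble each other, so counts can move between them. BAG6, a ligand of NKp30, was at 8.76 and NCR3LG1 (B7-H6), another, at 5.72. CD70 was at -3.05 and CADM1, a ligand of CRTAM, at -3.40, near the lowest value listed.

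Some receptors that read the members on NK cells were themselves among the transcripts of these libraries. CD226, the activating receptor of PVR, stood at 6.62 on the log2 CPM scale, or 98.1 CPM, and at 2.84 per kb against 1.61 for PVR. CD244, the receptor of CD48, was at 5.03 and CD2, the receptor of CD58, at 2.95. HCST, the DAP10 adaptor through which NKG2D signals, was at 2.50, whereas KLRK1, which encodes NKG2D, was at -3.25, TIGIT at -2.76 and CD96 at -1.29. Of 8 genes fixed as markers of NK or T cells, 6 were listed and 3 were at 1 CPM or more: PRF1 at 2.95, NCAM1 at 2.26 and NKG7 at 0.35. KLRD1, which encodes CD94, was at -3.76, GZMB at -1.99 and GNLY at -1.64. Of 3 markers of monocytes, LYZ was at 4.40 and CD14 and FCGR3A were at -2.67 and -1.99. Of 3 markers of B cells, 2 were listed and 1 was at 1 CPM or more, CD79A at 2.32. The part of other cells in the receptor levels was not tested.

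**Figure D4:**
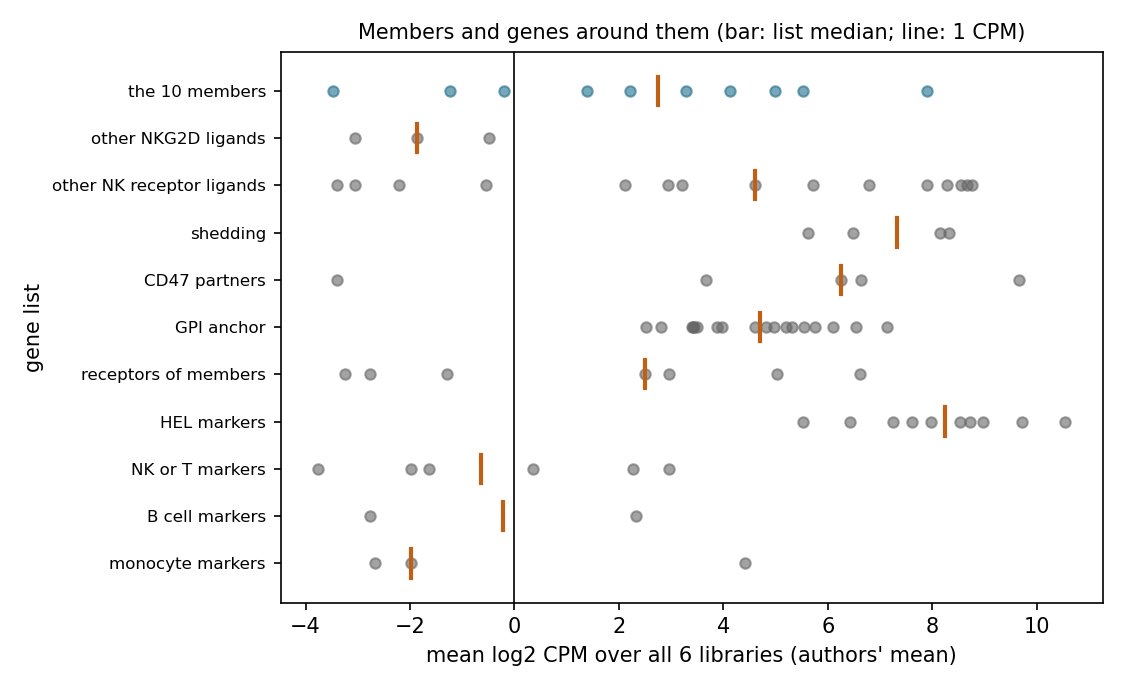
Mean log2 CPM over the 6 libraries (x axis) of the 10 members and of the fixed gene lists around them (y axis), 1 point per gene, with the list median as an orange bar and 1 CPM as the black line. The shedding and GPI anchor genes all lie above 1 CPM, while the other NKG2D ligands all lie below it.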

How the data were processed

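RNA of 3 shCtrl and 3 shTMIGD2 HEL libraries was sequenced after poly(A) selection with a kit that marks strand. Per the submitters' processing notes and the study's methods, reads were aligned to hg38 with STAR 2.6.1b and fragments per gene were counted with HTSeq 0.6.1 on a refSeq annotation. The submitters also name DESeq2 3.11 and edgeR. The authors' deposited table gives 1 mean log2 CPM per gene over the 6 libraries. Its prior count and filter are not given in the sources used here. The depth is unknown, so no interval is given. Of its columns, 4 hold the authors' own comparison of the hairpins (fold change, F statistic, p-value and adjusted p-value) and were not used. The planned count test needs counts per library and was not made.

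Gene names were matched by symbol to GENCODE 44 (22810 of 31999). Another 24 names read as calendar dates and were matched to no gene. Levels per kb are the mean log2 CPM minus log2 of the merged exon length in kb. All lengths are from GENCODE 44, which is not the annotation used for counting, so every level per kb carries this mismatch. Shared sequence, an addition made after the levels were seen, was counted as distinct stretches of 50 or 100 bases on the transcribed strand. Coding sequences and start windows were aligned globally with Biopython 1.88, under Python 3.11.15, pandas 2.3.3 and numpy 2.4.6. The scripts were tested on made-up values with known answers.

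The named genes were the 10 members, CD33, TMIGD2 and the genes of the context and marker lists. Members and lists were chosen with earlier results of these data known. CD99, in a list of antibody targets on blood cells, has a second copy in the annotation and got no level per kb. CD44 (5.74), CD38 (-2.93) and CD99 (-2.21) of that list are given here only, on the log2 CPM scale. How fragments that fit both copies of CD99 were counted was not tested, so its low value is not read as absence. IL3RA, SIRPG, CD3D, CD3E and MS4A1 were not analysed here, and the values of some list genes are not reported here. Identity between proteins, also planned, was not computed, and coding sequences were compared instead.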

Additional observations from a re-analysis of the deposited data

How the results depend on the processing

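The values of single genes carry no replicate error, so any change of scale counts as a move. Only orders and counts could be judged as stable or not, and the middle places of the order moved with the length used. The number of members at the 1 CPM threshold was 7, became 8 at 0.5 CPM, with ULBP2 added, and was 7 at 2 CPM. The share of MICB in the summed per-kb level of the 5 NKG2D ligands, 83.0% with merged exons, was 78.7% with the longest transcript, 77.3% with the longest coding sequence and 80.4% with no length correction. CD47 was highest under each length. Its distance above the next member, 0.82 on the log2 scale with merged exons, was 0.89 with the longest transcript, 2.63 with the longest coding sequence and 2.38 with no length correction. The coding length leaves out the long untranslated ends of CD47, from which fragments are also counted. The value with no length correction takes no account of the length of any gene. These alternatives for the share and the distance were chosen after seeing the data.

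No paired analysis was possible because the table holds no values per library. For the same reason a count test of the hairpins by edgeR or DESeq2, another filter or prior count and leaving out each replicate in turn were not run. Depth limits ULBP1, ULBP2 and ULBP3 most, since they lie under 1 CPM.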
